A study of Mus musculus with 10 samples.

Results

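Arg1, Nos2, Retnla, Chil3 and Mmp12 were followed in tumors of mice given L-fucose (L-fuc) or plain water, in 5 single-cell gene expression libraries. These 5 genes, out of the 32285 in the count matrices, were chosen by name as arginase, inducible nitric oxide synthase and 3 genes used as markers of alternatively activated macrophages. They and the gene lists below were chosen with earlier results of these data known, so their counts beside all genes are a description only. Each gene was counted in 3 kinds of barcode (a barcode is the tag that stands for 1 captured cell), among barcodes with at least 500 genes and at most 10% mitochondrial unique molecular identifiers (UMIs, counted RNA molecules). Macrophages were barcodes with at least 10 UMIs of C1qa, C1qb and C1qc together, C1q-low Lyz2-positive barcodes had at most 2 C1q UMIs and at least 3 Lyz2 UMIs, and tumor cells had at least 1 Sox10 UMI and no Ptprc (CD45) UMI. The 3 rules gave 5498 macrophages, 354 C1q-low barcodes and 13051 tumor cells among 31156 barcodes that passed the limits.

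Arginase and nitric oxide synthase compete for the same amino acid. Arginase-1, encoded by Arg1, splits arginine into ornithine and urea, whereas the inducible synthase encoded by Nos2 turns arginine into citrulline and nitric oxide. In mouse macrophages in culture, interleukin-4 and interleukin-13, acting through STAT6, induce Arg1, Retnla and Chil3, the classical readouts of alternative activation, and interferon gamma with bacterial products induces Nos2. In tumors, macrophages and immature myeloid cells that use up arginine are known to restrain T cells. Retnla encodes a small secreted cysteine-rich protein (RELM alpha), Chil3 a secreted chitinase-like protein without chitinase activity (Ym1) that monocytes and neutrophils also make, and Mmp12 the macrophage metalloelastase that cleaves elastin.

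All libraries came from SW1 melanoma tumors grown under the skin of the right flank of female C3H/HeJ mice aged 4 to 6 weeks, a strain that carries a defective Tlr4 in every group. There was 1 pretreatment library (day 0), 1 control and 1 L-fuc library at day 7 of treatment, and 1 control and 1 L-fuc library at day 21, each from cells labelled as CD45+ sorted and pooled over mice. Controls had no L-fuc in their water. The labels disagree on the L-fuc concentration in the drinking water (100 mM or 100 nM) and on the number of mice per arm (5 or 6, with 3 before treatment), and they give 10 days of tumor growth before treatment, for which the study's methods give a longer time. With 1 pooled library per condition, no difference between conditions has a replicate check, and cells of a library are not replicates. The intervals below are exact 95% intervals that cover counting error only, and since the UMIs of a member were clustered in few barcodes, they are too narrow for the conditions.

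The libraries held 1428 to 20741 barcodes and 14439185 to 119047810 UMIs. Macrophages numbered 456 at day 0, 1772 and 2071 at day 7 (control and L-fuc), and 788 and 411 at day 21. Their median depth was 5737 to 7887.5 UMIs, and 3 macrophage markers that the rule did not use (Apoe, Adgre1 and Csf1r) were detected in every library at a sum of 3232 to 7923 counts per 1000000 UMIs, against 170.3 to 421 in tumor cells. The CD45+ label was not met by all barcodes, since 18.0 to 50.3% of barcodes in a library passed the tumor cell rule. No Ptprc UMI was found in 46.4 to 72.4%, which does not count cells without CD45, since macrophages too can lack a Ptprc UMI. Among macrophages, Sox10 was present in 31.1% at control day 7, 13.9% at L-fuc day 7 and 2.19 to 9.98% in the other libraries, and at least 3 Cd3 UMIs were present in 16.1 to 20.2% up to day 7 and in at most 1.95% at day 21. No doublet caller was run. Results without these mixed macrophages are given for ratios of the members and for Arg1 with Nos2. The member levels, gene lists and likeness rankings include the mixed macrophages. Any pair of libraries shared 2 to 222 barcode sequences, at most 2.73% of the smaller library, and at most 2 of them were macrophages in both. C1q-low barcodes were few (53, 140, 123, 17 and 21 in the order given) and mixed in kind, with neutrophil markers at a sum of 98.6 to 19469 on the same scale.

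Arg1 (ENSMUSG00000019987) lies on chromosome 10 at chr10:24915221-24927484 of GRCm38, on the minus strand, in 8 exons of its longest transcript. Macrophages held 5928 Arg1 UMIs at day 0, 3899 at control day 7, 2773 at L-fuc day 7, 1080 at control day 21 and 1781 at L-fuc day 21. The macrophage level, in counts per 1000000 UMIs of the gate (CPM), was 1118 (95% interval 1090 to 1147) at day 0, 284 (275 to 293) at control day 7 and 149 (144 to 155) at L-fuc day 7. At day 21 it was 140 (132 to 149) for control and 288 (274 to 301) for L-fuc. The pretreatment library therefore stood highest, control day 7 and L-fuc day 21 overlapped, and L-fuc day 7 and control day 21 overlapped at the low end.

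An Arg1 UMI was found in 34.0% of macrophages at day 0, 23.2 and 15.5% at day 7 (control and L-fuc), and 6.47 and 17.3% at day 21. T cells (at least 3 Cd3 UMIs, at most 2 C1q UMIs and at most 2 Lyz2 UMIs) should make no arginase-1 and serve as a gauge of free RNA. The C1q and Lyz2 limits leave out barcodes with more macrophage RNA, so the gauge can read low. These T cells had an Arg1 UMI in 6.36, 5.74 and 3.10% of barcodes up to day 7. At day 21 it was 0 of 42 barcodes for control (which allows a share of up to 7.14%) and 4.17% for L-fuc. Their median depths were 3247 to 8600.5 UMIs. The macrophage shares stood above that gauge up to day 7. At day 21 the T cells were too few for a gauge, since 0 of 42 and 1 of 24 (0.105 to 21.1%) allow shares as high as those of the macrophages. When each macrophage was thinned to 2000 UMIs, leaving out 75, 174, 374, 203 and 122 shallower barcodes, the shares were 26.5, 16.0, 9.84, 5.30 and 11.4%, in the same order. Arg1 was uneven among the macrophages that had it, with up to 510 UMIs in a single barcode at day 0 and 229, 141, 162 and 376 in the richest barcode of the other libraries.

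C1q-low barcodes carried Arg1 at 2881 CPM (2727 to 3041) at day 0, where 28 of 53 barcodes were positive. The level there was 237 and 146 at day 7 (control and L-fuc), 6.22 from 1 UMI at control day 21, and 665 from 82 UMIs in 4 barcodes at L-fuc day 21. At day 0 Arg1 was thus highest outside the C1q-rich barcodes, and along the C1q scale, in Lyz2-positive barcodes without Sox10, it was 3006 CPM with no C1q UMI, 2427 with 3 to 9 and 1138 with at least 30. Tumor cells had Arg1 at 0.838 to 21.2 CPM, and at day 0 a single barcode that also passed the macrophage rule held 87 of their 97 UMIs. Between 63.8 and 83.3% of all Arg1 UMIs of a library were in macrophages.

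Nos2 (ENSMUSG00000020826), at chr11:78920787-78960254 on the plus strand with 27 exons, was sparse in every library. Macrophages held 136 Nos2 UMIs at day 0, 158 and 210 at day 7 (control and L-fuc), and 60 and 40 at day 21. These sums gave 25.6 CPM (21.5 to 30.3) at day 0, 11.5 (9.78 to 13.4) and 11.3 (9.82 to 12.9) at day 7, and 7.79 (5.94 to 10.0) and 6.46 (4.61 to 8.79) at day 21. Day 0 stood highest, the intervals of control and L-fuc overlapped on each day, and those of control day 7 and control day 21 overlapped at their ends. A Nos2 UMI was present in 6.80, 4.80, 3.72, 2.66 and 2.92% of macrophages against 0.289, 0.662 and 0.358% of T cells up to day 7 and 0 of 42 and 0 of 24 at day 21. In tumor cells Nos2 was at 0 UMIs in 3 libraries and at 0.209 to 0.539 CPM in the day 7 pair. C1q-low barcodes held 14 Nos2 UMIs at day 0 and 0 to 5 in the other libraries.

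Retnla, Chil3 and Mmp12 are shown with the bases before their transcription starts, because only these 3 of the 5 members matched a promoter entry. The sequences are RefSeq promoter windows on GRCm38.p6, written 5′ to 3′ on the gene's strand and cut before any annotated exon base. They lie at chr16:48842359-48842550 (plus strand) for Retnla and chr3:106167565-106167814 (minus strand) for Chil3. The Mmp12 window, chr9:7347124-7347373 (plus strand), is at the second of 2 listed starts, inside the annotated span of the gene. The window at the first Mmp12 start held none of the 4 motifs searched. Entries for Arg1 and Nos2 were not matched. Capitals mark the match to a searched motif, the STAT6 type of element (TTC and GAA with 4 free bases between them) in Retnla, TTCNNNGAA (the type that other STAT proteins bind) in Chil3 and TGANTCA (the AP-1 element) in Mmp12.
Retnla: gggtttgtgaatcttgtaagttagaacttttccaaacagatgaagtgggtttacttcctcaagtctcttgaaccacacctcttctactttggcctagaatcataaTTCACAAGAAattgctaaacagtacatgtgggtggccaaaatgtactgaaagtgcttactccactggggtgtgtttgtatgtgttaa
Chil3: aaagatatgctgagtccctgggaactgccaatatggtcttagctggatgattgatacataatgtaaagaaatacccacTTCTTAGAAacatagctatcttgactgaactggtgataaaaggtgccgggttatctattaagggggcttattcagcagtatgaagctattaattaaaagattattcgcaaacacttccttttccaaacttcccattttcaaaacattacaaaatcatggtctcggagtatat
Mmp12: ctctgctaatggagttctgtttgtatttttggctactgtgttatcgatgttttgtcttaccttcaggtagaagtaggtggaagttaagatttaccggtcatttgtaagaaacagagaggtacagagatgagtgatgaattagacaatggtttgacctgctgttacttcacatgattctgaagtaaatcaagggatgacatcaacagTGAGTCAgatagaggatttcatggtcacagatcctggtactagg
Counted to the RefSeq start, the match begins 145 bases before it in Retnla, 172 in Chil3 and 44 in Mmp12. The Retnla start, at position 48842609, lies past the end of the stretch printed and inside the annotated gene. Searched on both strands, the STAT6 type was in 5.85%, TTCNNNGAA in 7.01% and TGANTCA in 6.75% of 32817 promoter windows of 250 bases, and TATAAA, also searched, was in 12.4% of them and 30 bases before the Retnla start, past the stretch printed. A match describes the letters in the window and does not show that a factor binds there.

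Retnla (ENSMUSG00000061100, chr16:48842551-48844461, 4 exons) followed another course than Arg1. Macrophages held 913 Retnla UMIs at day 0, 147 and 82 at day 7 (control and L-fuc), and 1221 and 2517 at day 21. The level was 172 CPM (161 to 184) at day 0, 10.7 (9.04 to 12.6) and 4.41 (3.51 to 5.47) at day 7, and 158 (150 to 168) and 406 (391 to 423) at day 21. Both day 7 libraries were low and both day 21 libraries high, with day 0 and control day 21 overlapping. These sums rested on few barcodes: the richest macrophage held 506 of the 913 UMIs at day 0 and also had 21 Cd3 UMIs, another held 988 of 1221 at control day 21, and another 702 of 2517 at L-fuc day 21. Without that barcode the levels were 76.9, 30.4 and 298 CPM in these 3 libraries.

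The share of macrophages with a Retnla UMI was 6.36% at day 0, 1.24 and 1.06% at day 7, 3.05% at control day 21 and 20.9% (17.1 to 25.2) at L-fuc day 21. T cells had shares of 3.18, 0, 0.119, 2.38 (1 of 42) and 4.17% (1 of 24). The L-fuc day 21 share stood above its control, but both day 21 shares were within what 1 positive T cell of 24 (0.105 to 21.1%) and of 42 (0.0603 to 12.6%) allow. At day 0 the macrophage interval (4.30 to 9.01%) overlapped that of T cells (1.60 to 5.62%). C1q-low barcodes held 53 Retnla UMIs at control day 21 in 4 of 17 barcodes, 32 at day 0, 1 at L-fuc day 21 and none at day 7. Macrophages held 69.0 to 92.8% of a library's Retnla UMIs.

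At L-fuc day 21 most Retnla-positive macrophages were shallow. Among macrophages with under 3000 UMIs, 68 of 162 (42.0%) had Retnla, yet these 68 held only 142 of the 2517 UMIs and 47 of them had 1 or 2 UMIs. Among deeper macrophages, 18 (7.23%) were positive and held 2375 UMIs. At control day 21 the same shares were 6 of 282 (2.13%) and 18 of 506 (3.56%). Shallow barcodes with less C1q were often positive at L-fuc day 21 too, 49 of 191 (25.7%) with 3 to 9 C1q UMIs and 27 of 241 (11.2%) with at most 2, against 0 of 21 and 5 of 318 (1.57%) of the deeper ones.

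Other genes were then counted in the shallow macrophages of L-fuc day 21. They were taken from the genes ranked as most like Retnla over macrophages that include these barcodes, so a higher share among the positives is partly set by that choice. Ccl8, a monocyte-attracting chemokine, was found in 97.1% of the 68 Retnla-positive and 43.6% of the 94 Retnla-negative shallow macrophages, Mrc1 (the mannose receptor) in 52.9 and 13.8%, Pf4 (a platelet and macrophage chemokine) in 44.1 and 9.57%, and Mgl2 (a galactose lectin) in 32.4 and 6.38%. Timp2 was found in 41.2 and 30.9%, Bst1 in 8.82 and 1.06%, and Ltc4s in 0 and 1.06%. Ptprc was found in 27.9 and 33.0%, at median depths of 1493 and 1835 UMIs. Immunoglobulin RNA moved with this library as well: the 394 immunoglobulin genes took 5.85% of macrophage UMIs at L-fuc day 21 against 0.0210 to 0.514% in the others, and Igkc was found in 82.4% of the shallow positives and 57.4% of the shallow negatives. The part of free RNA and of shallow barcodes in the Retnla share was not tested.

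**Figure D1:**
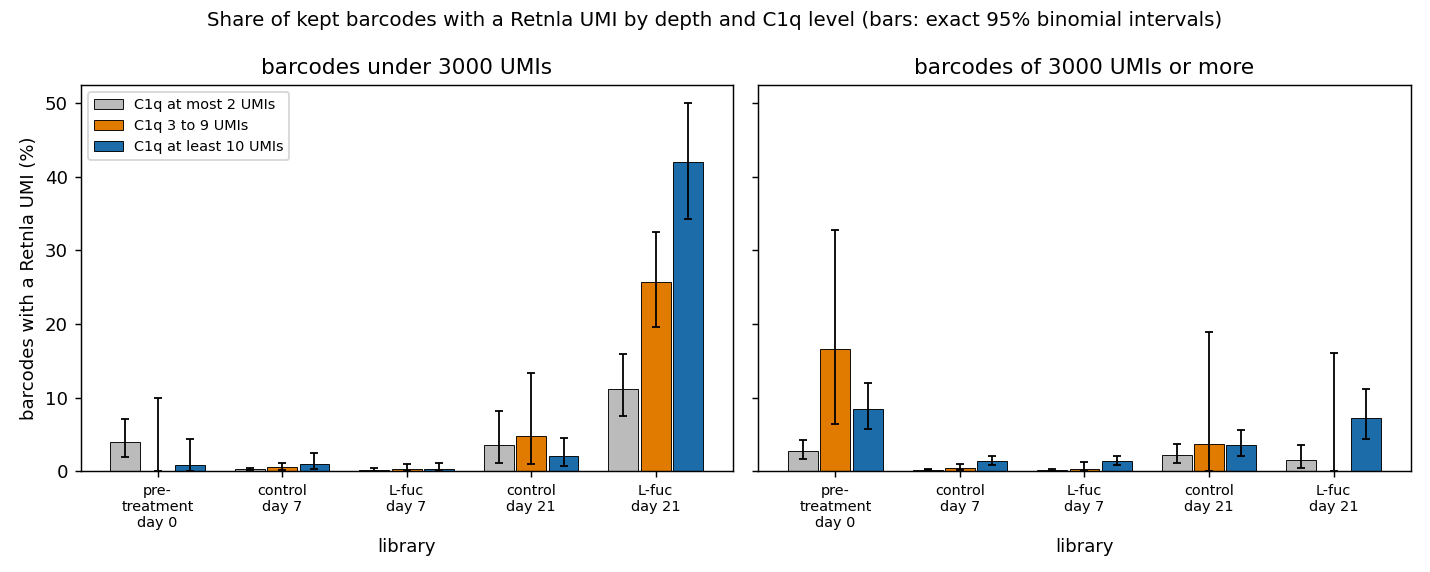
Share of barcodes with a Retnla UMI (percent, vertical axis) in each library, split by barcode depth (under 3000 or at least 3000 UMIs) and by C1q UMIs (at most 2, 3 to 9, at least 10), with exact 95% intervals as bars. At L-fuc day 21 the shallow barcodes reach 42.0% with at least 10 C1q UMIs and 25.7% with 3 to 9, above every other library.

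Chil3 (ENSMUSG00000040809, chr3:106147554-106167564, 11 exons) was in the main a day 0 gene. Macrophages held 1333 Chil3 UMIs at day 0, 28 and 14 at day 7, 0 at control day 21 and 13 at L-fuc day 21, all 13 in 1 barcode. The level was 251 CPM (238 to 265) at day 0, 2.04 and 0.753 at day 7, and 2.10 at L-fuc day 21, and the 0 of 788 barcodes at control day 21 allows a share of up to 0.381%. At day 0, 26 of 456 macrophages (5.70%) were positive, against 2.31% of T cells, with intervals (3.76 to 8.24% and 1.00 to 4.50%) that overlapped. At control day 7 the macrophage share of 0.508% was at the level of T cells (2 of 453, 0.442%) and was read as background. At L-fuc day 7 the share was 0.483% and no T cell of 838 was positive, which allows a share of up to 0.358%.

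Outside macrophages, Chil3 was also found in C1q-low barcodes, the gate that can hold monocytes and neutrophils. They held 422 UMIs at day 0, of which 308 were in 1 barcode rich in S100a8 and S100a9, the neutrophil calprotectin genes. At day 7 they held 13 UMIs in 9 of 140 control and 30 UMIs in 14 of 123 L-fuc barcodes. Barcodes with 3 to 9 C1q UMIs held 42.6% of the Chil3 UMIs at control day 7 and 57.6% at L-fuc day 21, where C1q-low barcodes held none. In both day 7 libraries macrophages held only 29.8 and 29.2% of the Chil3 UMIs, less than for any other member. Chil3 and Chil4 transcripts were 94.3% identical over 1540 aligned bases, so reads could be shared between them, and no Chil4 UMI was counted in any barcode that passed the limits. Retnla and its nearest relative Retnlg were 82.8% identical over 599 bases.

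Mmp12 (ENSMUSG00000049723, chr9:7344381-7369499, 7 exons) was at 289 CPM (275 to 304) at day 0, from 1535 UMIs. At day 7 it was at 91.6 (86.6 to 96.8) for control and 44.6 (41.6 to 47.7) for L-fuc, and at day 21 at 156 (148 to 165) and 307 (293 to 321). Day 0 and L-fuc day 21 stood highest, with overlapping intervals, and the day 7 pair lowest. In the L-fuc day 21 library a single deep barcode of 109713 UMIs held 1135 of 1902 Mmp12 UMIs, along with 376 of 1781 Arg1 UMIs and all the Chil3 UMIs, and Mmp12 was at 126 without it. Positive macrophages made up 14.5, 10.2, 8.21, 8.12 and 14.4% of the gate, against 0.716 to 1.99% of T cells up to day 7 and 0 of 42 and 0 of 24 at day 21.

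**Figure D2:**
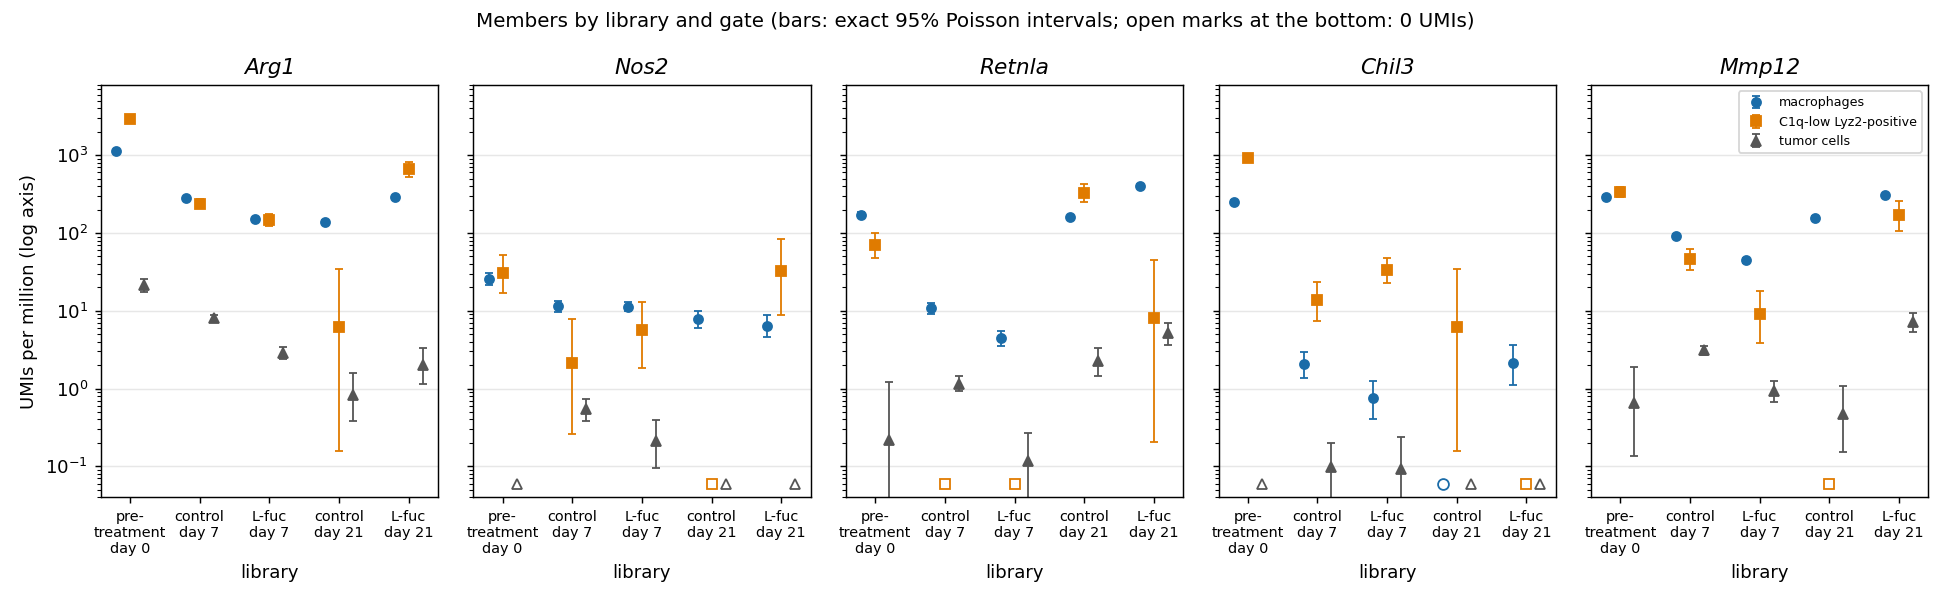
Counts per 1000000 UMIs (CPM, log axis) of each member in macrophages, C1q-low Lyz2-positive barcodes and tumor cells of each of the 5 libraries, with exact 95% Poisson intervals as bars and open marks for 0 UMIs. Macrophage Arg1 runs from 1118 at day 0 to 140 at control day 21, Retnla dips to 4.41 at L-fuc day 7, and Chil3 is at 0 at control day 21.

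Against tumor cells of the same library, Arg1, Nos2, Retnla and Mmp12 were higher in macrophages in 5 of 5 libraries and Chil3 in 4 of 5, being at 0 UMIs in both gates at control day 21. The mean log2 ratio was 6.16 ± 0.93 (SD, n = 5 libraries) for Arg1, 5.78 ± 0.95 for Nos2, 5.84 ± 1.98 for Retnla, 4.35 ± 3.58 for Chil3 and 6.46 ± 1.65 for Mmp12, with 1 UMI added to each sum. The added UMI sets the ratio where a gate was at 0, as tumor cells were for Nos2 and for Chil3 in 3 libraries each. Each of these contrasts gave an exact two-sided sign-flip permutation p of 0.063, the smallest that 5 libraries allow, and an adjusted p of 0.104 over the 10 gate contrasts. For Chil3 that p counts control day 21, at 0 UMIs in both gates, as higher in macrophages through the added UMI alone. The macrophage and tumor cell gates also shared 2 to 174 barcodes in a library. Against C1q-low barcodes Chil3 was lower in macrophages in 4 of 5 libraries, and at L-fuc day 21 it had 13 UMIs in macrophages and 0 in C1q-low barcodes. Its mean log2 ratio of -3.71 ± 2.17 (exact permutation p of 0.063, adjusted 0.104) counts that library as lower through the added UMI. Arg1 was higher in macrophages in 3 of 5 libraries (mean log2 0.24 ± 1.96, exact permutation p of 0.8125, adjusted 0.903), and Nos2 in 3 of 5 (exact permutation p of 1). Retnla and Mmp12 were higher in macrophages in 4 of 5, with means of 2.03 and 1.66 and an exact permutation p of 0.125 (adjusted 0.156) each.

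The first comparison in time asked how the members stood at control day 7 against day 0. In macrophages all 5 were more than 2-fold lower, whereas 3.06% of the 12577 genes whose UMIs came to 20 or more over the pair were lower by that much and 24.8% were higher. Chil3 stood at 0.00811 of its day 0 level (0.00537 to 0.0118), Retnla at 0.0621 (0.0518 to 0.0740), Arg1 at 0.254 (0.244 to 0.264), Mmp12 at 0.316 (0.293 to 0.341) and Nos2 at 0.448 (0.354 to 0.568). Without macrophages that held Sox10 or Cd3, Nos2 was at 0.554 and no longer past 2-fold, and Retnla was at 0.192. Tumor markers summed to 48.7 to 1139 CPM in macrophages across the libraries, and their part in these ratios was not tested.

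In the C1q-low barcodes of the same pair of libraries, the 4 members with enough UMIs were also lower, where 10.8% of 7361 genes were. Arg1 was at 0.0823 (0.0711 to 0.0950) of its day 0 level, Mmp12 at 0.136 (0.0948 to 0.192) and Chil3 at 0.0150 (0.00793 to 0.0260), and Retnla went from 32 UMIs to 0. Without C1q-low barcodes that held Sox10 or Cd3 the ratios were nearer to 1, at 0.285 for Arg1, 0.375 for Mmp12 and 0.113 for Chil3, and still past 2-fold. These 4 genes were thus lower at control day 7 in both gates. The C1q-low gate itself differed between day 0 and control day 7. Tumor markers summed to 217 and 2688 CPM, neutrophil markers to 98.6 and 942, and monocyte markers other than Chil3 to 1674 and 867. The tumor cell rule was passed by 1 of 53 and 46 of 140 of its barcodes. The part of these differences in the ratios was not tested.

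Between control day 7 and control day 21, the members parted. In macrophages Retnla was 14.8-fold higher (12.5 to 17.7) at day 21, or 4.79-fold (3.73 to 6.20) without the richest barcode of each library, where 4.36% of 12767 genes were past 2-fold higher. Arg1 stood at 0.494 (0.461 to 0.529) and Chil3 went from 28 UMIs, at a share read as background, to 0, where 17.9% of genes were past 2-fold lower. Arg1 was at 0.575 when scaled to the median of all genes, which was -0.22 on the log2 scale, and at 0.604 with C1q of at least 5. Nos2 was at 0.677 (0.495 to 0.917) and Mmp12 at 1.71 (1.58 to 1.85), or 2.30 with C1q of at least 5. This comparison and the next both use the control day 7 library.

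L-fuc at day 7 was set against its control to ask how the members stood with the sugar in the drinking water. In macrophages Retnla stood at 0.412 (0.311 to 0.544) of control, Chil3 at 0.370 (0.180 to 0.726) and Mmp12 at 0.487 (0.446 to 0.532), so that 3 of 5 members were past 2-fold lower where 4.76% of 13515 genes were lower and 3.43% higher. Arg1 was at 0.526 (0.500 to 0.552) and Nos2 at 0.982 (0.795 to 1.22), neither past 2-fold. Apoe, Adgre1 and Csf1r summed to 6390 CPM in control and 3232 in L-fuc macrophages. Lyz2 was at 1780 and 1160 CPM, and C1q at 10340 and 11114. Per 1000 Lyz2 UMIs, Arg1 was at 159 and 129, Mmp12 at 51.4 and 38.4, and Retnla at 6.01 and 3.80. Chil3 was at 1.15 and 0.649 on that scale, and Nos2 at 6.46 and 9.74. The part of such gate differences in the member ratios was not tested. The Chil3 value rested on 14 and 28 UMIs, and 12 of the 28 control UMIs were in 1 barcode that also held Sox10. Control macrophages, at 2.04 CPM, were near the 1.76 CPM of T cells, and their Chil3 share was read as background above.

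The 2-fold calls at day 7 were not kept when macrophages that also held tumor or T cell genes were left out. Without barcodes with Sox10 or Cd3, Arg1 stood at 0.620 (0.582 to 0.662), Retnla at 0.598 (0.425 to 0.841), Mmp12 at 0.745 (0.654 to 0.848), and Nos2 at 1.07, and 0 of the 4 members with enough UMIs were past 2-fold. Chil3, at 0.930 from 8 and 5 UMIs, was below the minimum for a call. Arg1, Retnla and Mmp12 stayed below 1 with intervals that did not reach it. Barcodes with Sox10 or Cd3 held 53.4% of the macrophage Arg1 UMIs and 66.6% of the Mmp12 UMIs at control day 7, and 30.1 and 35.1% at L-fuc day 7. Their part in the day 7 ratios was not tested. Without the richest barcode of each library, 1 member (Mmp12) was past 2-fold lower. By share of macrophages with a UMI, the ratio was 0.666 (0.574 to 0.773) for Arg1, 0.804 (0.648 to 0.996) for Mmp12, 0.775 (0.562 to 1.07) for Nos2, 0.856 (0.452 to 1.62) for Retnla and 0.951 (0.347 to 2.64) for Chil3.

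In C1q-low barcodes at day 7, Mmp12 was past 2-fold lower with L-fuc (0.195, 0.0793 to 0.420, from 8 and 43 UMIs), where 13% of 8380 genes were, and at 0.0376 without the richest barcode of each library. Chil3 was past 2-fold higher (2.42, 1.23 to 5.06, from 30 and 13 UMIs), where 8.1% of genes were, but it was at 0.693 (0.266 to 1.93) without barcodes that held Sox10 or Cd3. The gate itself differed between the pair, with neutrophil markers at a sum of 942 CPM for control and 8441 for L-fuc, monocyte markers other than Chil3 at 867 and 2417, and tumor markers at 2688 and 1093, whose part in these ratios was not tested. Arg1 was at 0.615 (0.491 to 0.767), from 130 UMIs in 6 barcodes and 222 in 18, at 0.424 (0.313 to 0.568) without the richest barcode of each library and at 0.203 (0.153 to 0.268) without barcodes that held Sox10 or Cd3. In tumor cells the 4 members with enough UMIs were all past 2-fold lower with L-fuc, where 4.51% of 14603 genes were: Arg1 at 0.354, Nos2 at 0.389, Retnla at 0.100 and Mmp12 at 0.299. Macrophage barcodes with Sox10 and no Ptprc belonged to both gates, 174 for control and 110 for L-fuc, and held 161 of 585 Arg1 UMIs and 61 of 84 Retnla UMIs of the control tumor cells. Lyz2 was at 68.8 CPM in control and 19.5 in L-fuc tumor cells, and C1q at 280 and 134. Per 1000 Lyz2 UMIs of tumor cells, Arg1 was at 117 and 147, Nos2 at 7.83 and 10.8, Mmp12 at 45.2 and 47.8, and Retnla at 16.9 and 5.98. The part of macrophage RNA in the tumor cell ratios was not tested.

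At day 21 Arg1, Retnla and Mmp12 stood the other way, and Nos2 did not. In macrophages Arg1 was 2.05-fold (1.90 to 2.21) and Retnla 2.56-fold (2.39 to 2.75) the control level, so that 2 of the 4 members with enough UMIs were past 2-fold higher, where 4.29% of 11674 genes were higher and 1.04% lower. Mmp12 was at 1.96 (1.83 to 2.11), but at 1.03 (0.933 to 1.13) without the richest barcode of each library. Retnla was at 9.82 (8.56 to 11.3) and Arg1 at 1.93 (1.77 to 2.09), no longer past 2-fold, under the same omission. Without barcodes that held Sox10 or Cd3, 3 of 4 members were past 2-fold higher, Mmp12 at 2.59 among them. Nos2 was at 0.829 (0.541 to 1.26), and Chil3 had 13 and 0 UMIs, below the minimum for a call. Lyz2 was at 1524 CPM in control and 2238 in L-fuc macrophages, and C1q at 18779 and 14644. Per 1000 Lyz2 UMIs, Arg1 was at 92.0 in control and 129 in L-fuc, Retnla at 104 and 182, and Mmp12 at 103 and 137. Nos2 was at 5.11 and 2.89 on that scale, and Chil3 at 0 and 0.938. The part of such gate differences in the member ratios was not tested.

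The Arg1 difference at day 21 was also seen in the number of macrophages that held it. Their share was 2.67-fold (1.84 to 3.90) the control share, 71 of 411 against 51 of 788, and 2.15-fold (1.28 to 3.64) after thinning. The Mmp12 share was 1.77-fold (1.22 to 2.56) and 1.87-fold (1.03 to 3.39) after thinning. For Retnla the share was 6.87-fold (4.33 to 11.3) but 2.58-fold (1.09 to 6.27) after thinning, which leaves out the shallow barcodes described above. The Nos2 share was 1.10-fold (0.491 to 2.33).

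C1q-low barcodes at day 21 numbered only 17 and 21. They held 82 Arg1 UMIs with L-fuc and 1 in the control, a ratio of 107 (18.6 to 4270), 21 and 0 Mmp12 UMIs, and 1 and 53 Retnla UMIs (0.0246, 0.000611 to 0.143), in a gate where 11.1% of 2153 genes were past 2-fold higher and 12.5% lower. In tumor cells Mmp12 was 15.4-fold (6.21 to 49.4), Arg1 2.42-fold (0.994 to 6.28) and Retnla 2.30-fold (1.35 to 4.01) the control level, where 2.38% of 11965 genes were past 2-fold higher. Among tumor cells with at most 2 C1q UMIs, Retnla stood at 0.595 (0.241 to 1.34) and Arg1 at 0.970. Those cells held 4 of the 53 Mmp12 UMIs with L-fuc and 2 of 5 in the control. Lyz2 was at 3.82 CPM in control and 19.2 in L-fuc tumor cells. The part of macrophage RNA in the tumor cell ratios was not tested.

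**Figure D3:**
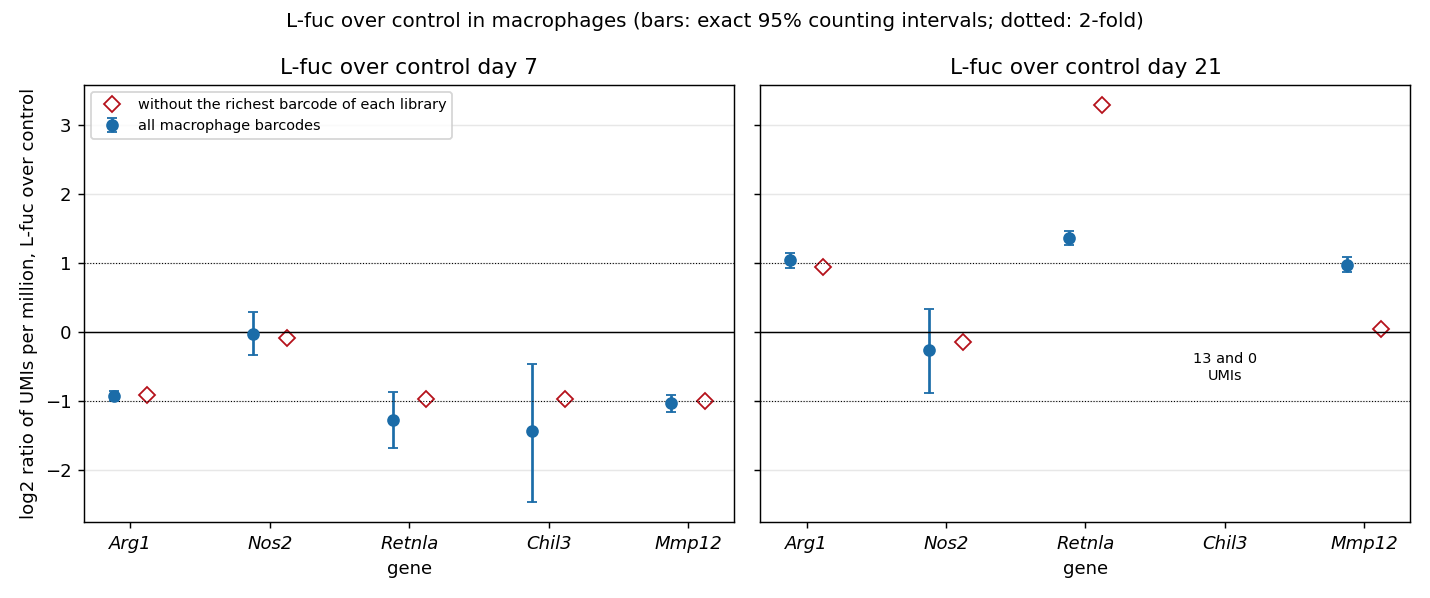
Log2 ratio of CPM, L-fuc over control, of each member in macrophages at day 7 and day 21 (points, with exact 95% intervals as bars), with diamonds for the ratio without the richest barcode of each library and dotted lines at 2-fold. Arg1, Retnla and Mmp12 lie below 0 at day 7 and above it at day 21, Mmp12 is at a ratio of 1.03 at day 21 without its richest barcode, and Nos2 stays near 0.

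Arg1 and Nos2 were not exclusive of each other in single macrophage barcodes. Since no doublet caller was run, a barcode may hold more than 1 cell, and the part of such barcodes was not tested. Over all macrophages of each library a Nos2 UMI was more frequent among Arg1-positive than Arg1-negative macrophages, 17.4% (11.8 to 24.3) against 1.33% at day 0, 13.4 against 2.20% at control day 7, 11.6 against 2.28% at L-fuc day 7, 15.7 against 1.76% at control day 21 and 14.1 against 0.588% at L-fuc day 21. Barcodes with both numbered 27, 55, 37, 8 and 10, where independent detection would have given 10.5, 19.7, 11.9, 1.36 and 2.07. Seen from Nos2, 87.1, 64.7, 48.1, 38.1 and 83.3% of Nos2-positive macrophages also had Arg1. The pattern was not particular to macrophages. In tumor cells of control day 7, Nos2 was in 2.90% of Arg1-positive and 0.243% of Arg1-negative barcodes, and 10 held both where 1.19 were expected. L-fuc day 7 tumor cells had Nos2 in 1 of 47 and 8 of 2939. T cells had both genes in 1 barcode at control day 7 and in 0 at L-fuc day 7. The part of macrophage RNA in these barcodes was not tested.

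Depth favors finding any pair of genes together, and Arg1-positive macrophages were deeper, with a median of 14384 against 6167 UMIs at day 0 and 23211 against 4127.5 at L-fuc day 21. After thinning to 2000 UMIs the Nos2 share was 9.90% (10 of 101) against 0 of 280 at day 0, 5.86 against 0.820% at control day 7, 4.19 against 1.24% at L-fuc day 7, 3.23 against 1.08% at control day 21 and 3.03 against 0.391% at L-fuc day 21. The direction was the same in all 5 libraries, though at day 21 it rested on 1 barcode with both genes in each library. Among macrophages of at least 10000 UMIs the shares were 22.0 against 1.74%, 21.1 against 4.22%, 17.4 against 3.28%, 19.4 against 3.16% and 14.8 against 0.781%. Most barcodes with both genes were this deep, 20 of 27, 37 of 55, 26 of 37, 7 of 8 and 9 of 10. Among the shallow macrophages of under 3000 UMIs the direction held only at day 0, where 2 of 26 Arg1-positive and 0 of 99 Arg1-negative barcodes had Nos2. At day 7 it was 0 of 53 and 5 of 367 for control and 0 of 55 and 7 of 574 for L-fuc. At day 21 it was 0 of 7 and 0 of 275 for control and 0 of 3 and 1 of 159 for L-fuc. Without barcodes holding Sox10 or Cd3 the shares were 15.1 against 1.23%, 11.8 against 2.49%, 10.7 against 2.59%, 15.2 against 1.69% and 13.6 against 0.673%.

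**Figure D4:**
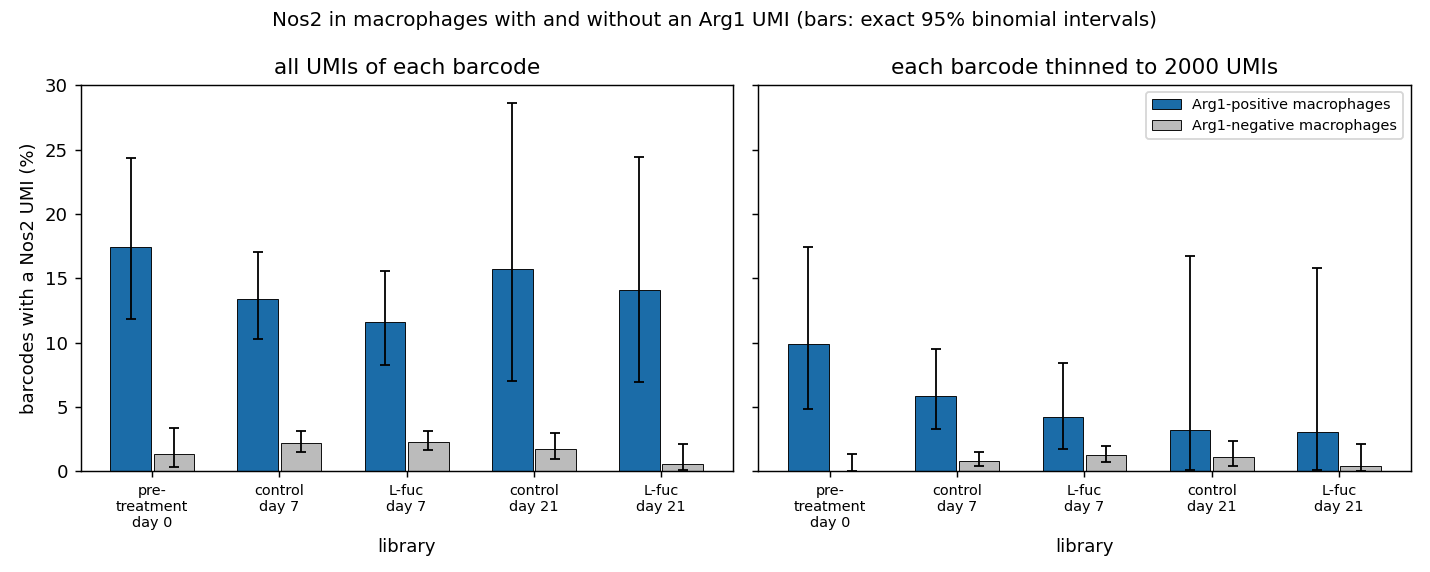
Share of macrophages with a Nos2 UMI (percent) among Arg1-positive and Arg1-negative macrophages of each library, with all UMIs and after thinning each barcode to 2000 UMIs (exact 95% intervals as bars). The Arg1-positive share is the higher one in every library, from 11.6 to 17.4% with all UMIs.

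The Nos2 level also differed with the amount of Arg1. In macrophages without Arg1, Nos2 was at 1.37, 4.37, 8.03, 5.98 and 0.483 CPM in the order day 0, control and L-fuc day 7, control and L-fuc day 21. With at least 10 Arg1 UMIs it was at 83.9, 63.9, 46.6, 34.0 and 19.7, and 31.9, 35.1, 24.2, 27.3 and 18.5% of those barcodes had a Nos2 UMI. In the L-fuc day 7 and control day 21 libraries most Nos2 UMIs lay outside Arg1-positive macrophages, 119 of 210 in 40 barcodes and 40 of 60 in 13 barcodes.

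**Figure D5:**
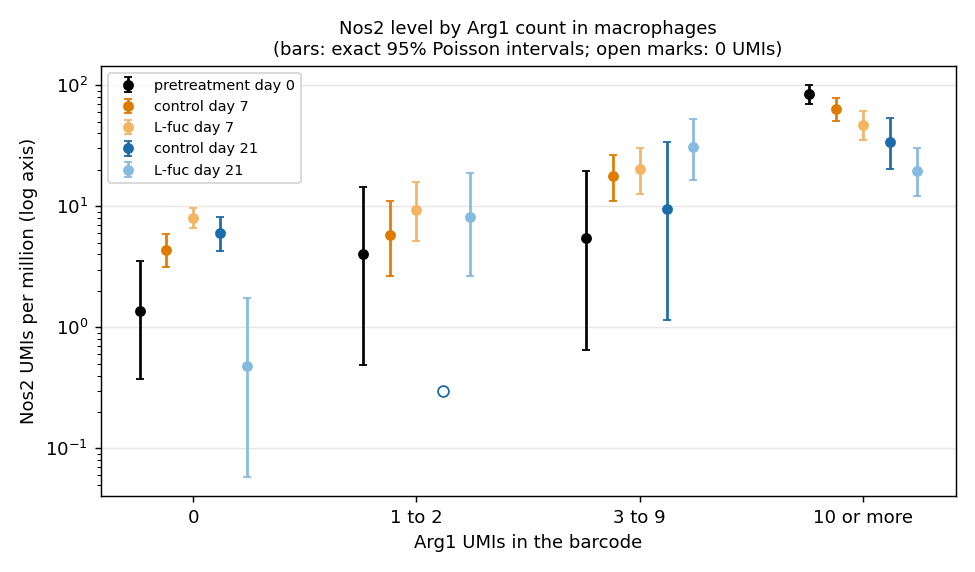
Nos2 CPM (log axis) in macrophages with 0, 1 to 2, 3 to 9 and at least 10 Arg1 UMIs, for each library, with exact 95% Poisson intervals as bars and open marks for 0 UMIs. The highest Arg1 class holds 19.7 to 83.9 Nos2 CPM against 0.483 to 8.03 in macrophages with no Arg1 UMI.

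The other members tended to share barcodes with Arg1 at day 0. In macrophages thinned to 2000 UMIs at day 0, all 16 Chil3-positive barcodes had Arg1 where 4.24 were expected under independence, 15 of 18 Retnla-positive barcodes did where 4.77 were expected, and 24 of 41 Mmp12-positive barcodes did where 10.9 were expected. Retnla and Chil3 were together in 10 barcodes, against 0.756 expected. Arg1 and Mmp12 were together more often than independence gives in the later libraries too, in 40 barcodes (15.2 expected) at control day 7, 20 (8.07) at L-fuc day 7, 8 (1.38) at control day 21 and 8 (2.74) at L-fuc day 21. Retnla and Arg1 were together in 1 barcode (0.583 expected) at control day 21 and 3 (1.60) at L-fuc day 21. At least 1 member was found in 41.2, 29.9, 22.6, 16.1 and 43.6% of macrophages, and all 5 in 5 barcodes, all at day 0.

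Genes with a pattern like that of each member were ranked by the log2 ratio of their level in positive over negative macrophages of a library, taking the lowest ratio over the libraries with at least 20 positive barcodes. For Arg1, over 5 libraries and 6913 genes, the first 8 were Atp6v0d2 (lowest log2 ratio 3.15), Mmp12 (2.68), Cd36, Adam8 (1.89), Igf1 (1.86), AA467197 (1.72), Cxcl1 (1.55) and Selenbp2 (1.44). For Nos2, over 4 libraries, they were Mmp13 (2.44), Selenbp1 (2.32), Adm (2.29), Mmp12 (2.26), Selenbp2 (2.10), Atp6v0d2 (2.05), Slc7a2 (1.90) and Arg1 itself (1.88). Arg1 and Nos2 thus had Mmp12, Atp6v0d2, a subunit of the vacuolar proton pump, and Selenbp2 among their first 8 in common, and the Nos2 list held Slc7a2, a transporter that brings arginine into cells.

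Retnla had other neighbors. Among its first 8 over 5 libraries were Mgl2 (2.03), Pf4 (1.44), Ccl8 (1.35), Ltc4s (1.27), Mrc1 (1.10), Timp2 (0.96) and Bst1 (0.86). Those of Mmp12 were Atp6v0d2 (2.45), Mmp13 (2.32), Igf1 (1.73), Adam8 (1.70), Rnf128 (1.67), Arg1 (1.65), Gstm1 (1.55) and Adm (1.46). Chil3 could be ranked at day 0 alone, where Fn1 (5.67), Inhba (5.07), Mmp13 (5.02), Ankrd55 (4.95), Fabp4 (4.81), Rnase2a (4.64), Mmp12 (4.56) and Ccl24 (4.44) came first. Positive barcodes were deeper than negative ones for Arg1, and these ratios describe the libraries without a test.

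Other genes that supply or use arginine were counted beside Arg1 and Nos2. Of 10 such genes (Arg2, Ass1, Asl, Slc7a1, Slc7a2, Odc1, Oat, Azin1, Gch1 and Ddah2) none was past 2-fold in macrophages at day 7 or day 21. Among all genes, 8.18% were past 2-fold either way at day 7 and 5.33% at day 21, so a count of none in 10 was near those shares. Their median log2 ratio was -0.14 at day 7, where that of all genes was -0.14, with Ass1, the citrulline recycling enzyme, highest (0.46) and Ddah2, which breaks down inhibitors of nitric oxide synthase, lowest (-0.62). At day 21 the median was 0.35 against 0.02 over all genes, with Ddah2 highest (0.81) and Gch1, which makes the synthase's cofactor, lowest (-0.58). Over time, control day 7 against day 0 had Ddah2 (10.0-fold) and the arginine transporter Slc7a1 (2.16-fold) past 2-fold higher and Slc7a2 (0.412) lower. These 2 of 10 higher were near the share of all genes, of which 24.8% were higher and 3.06% lower. Control day 21 against day 7 had Ddah2 (0.157) lower, where 17.9% of all genes were.

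Of 14 other alternative activation genes, 12 had enough UMIs in macrophages at day 7, where Ear2 (0.474), an eosinophil-type ribonuclease, was past 2-fold lower with L-fuc (4.76% of all genes) and none was higher (3.43%), with a median log2 of 0.08. Irf4, a factor of the interleukin-4 response, was highest at 0.87. At day 21, 4 of 13 were past 2-fold higher, namely Irf4 (17.1-fold), Ear2 (6.58-fold), Mgl2 (4.13-fold) and Retnlg (3.73-fold), where 4.29% of all genes were, none was lower, the median was 0.32, and Pparg was lowest (-0.76). Irf4 is also a gene of antibody-making cells, and immunoglobulin RNA was at 5.85% of macrophage UMIs in that library. Retnlg was also 1 of the neutrophil markers counted, which summed to 45.3 CPM in control and 42.9 in L-fuc macrophages at day 21. The part of such cells in the Irf4 and Retnlg values was not tested. From day 0 to control day 7, 6 of 12 were past 2-fold lower (Ccl24 at 0.0166, Clec10a at 0.183, Mgl2 at 0.184, Ear2 at 0.319, Mrc1 at 0.365 and Klf4 at 0.472), where 3.06% of all genes were, and Retnlg was higher (4.68-fold), where 24.8% were, with a median of -0.70 against 0.37 over all genes. From control day 7 to day 21, Clec10a (6.61-fold), Cd163 (3.37-fold), Pparg (3.07-fold) and Klf4 (2.31-fold) were higher and Retnlg (0.0919) and Irf4 (0.362) lower, where 4.36 and 17.9% of all genes were.

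The 12 genes of classical activation, the program that Nos2 belongs to, had 2 members past 2-fold higher with L-fuc at day 7, Il12b (2.44-fold), a subunit of interleukin-12, and Cxcl9 (2.22-fold), an interferon gamma-induced chemokine, where 3.43% of all genes were, and none lower, with a median of 0.31 and Acod1 lowest (-0.37). At day 21 none was past 2-fold, where 5.33% of all genes were either way. The median was -0.13, and the extremes were Il6 (0.52) and Socs3 (-0.59). From day 0 to control day 7, Il1b (0.481) was lower, where 3.06% of all genes were, and Acod1 was highest (0.20). From control day 7 to day 21, Socs3 (3.51-fold), Il12b (2.83-fold) and Il1b (2.20-fold) were higher, where 4.36% of all genes were, and Acod1 was lowest (-0.86).

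Among 7 metalloproteinases and inhibitors beside Mmp12, Mmp8 (0.468), the neutrophil collagenase, was past 2-fold lower in macrophages with L-fuc at day 7. The share of all genes past 2-fold lower was 4.76%. Mmp9 was highest (0.28) in the list, and the list median was -0.58. None of 5 was past 2-fold at day 21, where 5.33% of all genes were either way, with Mmp13 highest (0.74) and Mmp19 lowest (-0.33). From day 0 to control day 7, Mmp13 (0.185), Mmp8 (0.351) and the inhibitor Timp1 (0.494) were lower, as Mmp12 was, where 3.06% of all genes were. From control day 7 to day 21, Timp1 (0.226) was lower, where 17.9% of all genes were, and Mmp13 was highest (0.50).

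A list of 9 upstream genes was counted in the macrophage gate as well. It held Il4, Il13, Ifng, Csf2, the receptor genes Il13ra1, Ifngr1, Ifngr2 and Tlr4, and Hif1a. Whether these genes act on the members in these tumors was not tested. At day 7, 4 of 9 upstream genes were past 2-fold higher with L-fuc, Il13 (106 against 5 UMIs, 15.7-fold), Il4 (34 against 0 UMIs), Ifng (5.25-fold) and Csf2 (4.33-fold), where 3.43% of all genes were, and Tlr4 was lowest (-0.38). These are genes of lymphocytes, mast cells and basophils, and at least 3 Cd3 UMIs were present in 20.2% of L-fuc and 16.1% of control macrophages at day 7, where mast cell and basophil markers summed to 38.2 and 6.26 CPM, and their part in these values was not tested. At day 21, 2 of 7 were past 2-fold lower with L-fuc, Ifng (0.447) and Csf2 (0.237), where 1.04% of all genes were, and Tlr4 was highest (0.39). From day 0 to control day 7, Ifng (3.51-fold) and Csf2 (3.27-fold) were higher, where 24.8% of all genes were. Il13ra1, a subunit of the interleukin-13 receptor, was lowest (-0.59). From control day 7 to day 21, Csf2 (0.341) was lower, where 17.9% of all genes were, and Ifngr2 was highest (0.64).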

How the data were processed

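The authors made the libraries with the 10x Genomics Chromium system and counted reads with Cell Ranger against mm10 (version 3.0 in the submitters' processing notes, 7.1.0 in the matrix headers). The deposited matrices hold raw UMI counts per gene and barcode, not normalized, with more barcodes than a filter on 500 genes keeps. The 5 receptor libraries were not used. UMIs of each gene were summed per library and gate and scaled to 1000000 UMIs of the gate (CPM). No test was run between conditions, each having 1 library. A gene was called past 2-fold when the ratio, with 1 UMI added to each sum, was at least 2-fold either way, among genes whose UMIs over the pair came to 20 or more. Intervals are exact 95% (Poisson for sums, Clopper-Pearson for shares, conditional binomial for ratios). Gate contrasts used an exact two-sided sign-flip permutation test over 5 libraries, Benjamini-Hochberg adjusted over 10. PCR copies were collapsed by UMI, and intervals and floors (3 counts) cover counting error only.

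The named genes were the 5 members, for each list the genes past 2-fold and the highest and lowest of each comparison, and the 8 genes ranked first for likeness to a member (at least 20 positive barcodes per library, at least 50 UMIs). The likeness ranking for Retnla, Chil3 and Mmp12 and the genes set beside Retnla in shallow barcodes were added after values were seen. One gene of the Retnla ranking and 1 of the macrophage markers are not reported here. Members and lists were chosen with earlier results of these data known. Alternatives were gate limits, filters, thinning (seed 1), scaling, omission of mixed barcodes and of the richest barcode. Scripts (pandas 2.3.3, scipy 1.17.1, matplotlib 3.10.9 and numpy 2.4.6 under python 3.11.15) were tested on simulated data. Positions are from GENCODE on GRCm38, transcript identities from blastn 2.17.0, and promoters from RefSeq, where 3 of 5 members matched.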

Additional observations from a re-analysis of the deposited data

Results flagged for a closer look

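Among members with UMIs in all 4 treated and control libraries, 6 pairs of L-fuc to control ratios over 3 gates lay on opposite sides of 1 at day 7 and day 21, each with a counting interval that left out 1. The difference between the days was not tested, since every condition has 1 library. In macrophages Arg1 stood at 0.526 at day 7 and 2.05 at day 21, Retnla at 0.412 and 2.56, and Mmp12 at 0.487 and 1.96, the last at 1.03 at day 21 without the richest barcode of each library. In C1q-low Lyz2-positive barcodes Arg1 stood at 0.615 and 107, the second from 82 UMIs against 1. In tumor cells Retnla stood at 0.100 and 2.30 and Mmp12 at 0.299 and 15.4. Macrophage barcodes without Ptprc that passed the tumor rule held 61 of the 84 control day 7 Retnla UMIs and 94 of the 225 Mmp12 UMIs. At day 21, tumor cells with at most 2 C1q UMIs held 4 of the 53 Mmp12 UMIs with L-fuc and 2 of 5 in the control. Retnla was at 0.595 among them. With 0 UMIs in a control library, Mmp12 in C1q-low barcodes stood at 0.195 at day 7 and 21 against 0 UMIs at day 21. Chil3 in macrophages stood at 0.370 at day 7, where its control share was read as background, and at 13 against 0 UMIs at day 21.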

How the results depend on the processing

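No paired analysis was possible because mice were pooled and a group holds 1 library, and for the same reason no replicate could be left out. Of 1060 values under another setting, 865 stayed within the counting interval of the reported value (counts within 1.5 times) and 195 did not. Of the 287 ratios among the 1060, 14 lay on the other side of 1, and 5 of these belong to ratios whose reported interval left out 1. The omission of the richest barcode, the counts at 3 UMIs and the tumor cells with at most 2 C1q UMIs were chosen after seeing the data. For macrophages at day 7, L-fuc over control, Arg1 was 0.573 with C1q of at least 5, 0.620 without Sox10 or Cd3 barcodes and 0.580 scaled to the median of all genes, Mmp12 was 0.745 without those barcodes and 0.537 scaled, Retnla was 0.598 and Chil3 0.930 without those barcodes, and the number of members past 2-fold lower went from 3 of 5 to 0 of 4 without them (Chil3 had too few UMIs) and to 1 without the richest barcodes. At day 21 the values without Sox10 or Cd3 barcodes were 2.37 for Arg1, 2.10 for Retnla and 2.59 for Mmp12, Mmp12 was 1.72 with C1q of at least 5 and 1.03 without the richest barcodes, Retnla was 9.82 without them, and the number of members past 2-fold higher went from 2 to 1 under both of these settings and to 3 with C1q of at least 20 and without Sox10 or Cd3 barcodes. From control day 7 to control day 21 the number past 2-fold lower went from 2 to 1 with scaling, with C1q of at least 5, without Sox10 or Cd3 barcodes and without the richest barcodes (Chil3 having too few UMIs in the last pair of settings), and the number higher from 1 to 2 with C1q of at least 5.

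The Nos2 share of Arg1-positive macrophages was 9.90, 5.86, 4.19, 3.23 and 3.03% after thinning to 2000 UMIs and 5.88% at control day 21 after thinning to 5000, and 22.4 and 16.9% in the day 7 control and L-fuc libraries with Arg1 counted from 3 UMIs. With at least 50 UMIs per gene, 731 in place of 1106 genes were past 2-fold at day 7 and 313 in place of 622 at day 21. The 5 ratios on the other side of 1 whose reported interval left out 1 were Chil3 in C1q-low barcodes at day 7 (0.693 without Sox10 or Cd3 barcodes), the share of tumor cells with at least 3 Arg1 UMIs at day 7 (1.18), Retnla in tumor cells at day 21 (0.595 with at most 2 C1q UMIs) and Arg1 in tumor cells from day 0 to control day 7 (2.27 with at most 2 C1q UMIs and 3.50 without the richest barcode). The other 9, with reported intervals that held 1, were Nos2 in macrophages at day 7 (0.982 to 1.07, 1.08 and 1.09), the Retnla share there (0.856 to 1.71 at 3 UMIs and 1.05 thinned), the Nos2 share at day 21 (1.10 to 0.578 thinned), and in tumor cells Chil3 (0.962 to 1.51) and the Mmp12 share (1.16 to 0.274) at day 7 and Arg1 at day 21 (2.42 to 0.970). Apart from the settings' own omission of barcodes or UMIs, the cause was not tested. Depth limits Nos2 and, after day 0, Chil3 most, with 40 to 210 and 0 to 28 UMIs over all macrophages of a library.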
